A study of Mus musculus with 4 samples.

Results

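MicroRNAs of mouse cortical neurons after 4 days in culture were compared with those after 2 days, the first interval of a series that runs to Day 8. Neurites grow out in this interval. The comparison took in every probe whose name includes a mouse miRNA, 1030 out of 2345 probes that carry a miRNA name at all, on 2 of the 4 arrays of the series. The Day 4 and the Day 2 cultures were untreated primary neurons of Swiss Albino mouse cortex, taken on gestation day 15. Total RNA of separate experiments had been pooled for each day before labelling, and each pool was hybridised to 1 array. No test of Day 4 against Day 2 is therefore possible, and each ± below is the technical SD of a difference between the 4 replicate spots that a probe has on each array. It does not cover the spread between cultures.

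MicroRNAs are short RNAs cut from the arms of a hairpin precursor, and they guide a silencing complex to messenger RNAs that pair with their seed, the bases 2 to 8. Several are encoded together in clusters and are transcribed as 1 RNA. In the cortex, miR-17-92 and its paralogous clusters are known for promoting the division of progenitors, whereas miR-124, miR-9 and miR-128 are abundant in neurons, and miR-132, miR-137, miR-138 and the miR-29 family have been tied to dendrites, spines and the survival of maturing neurons.

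A miRNA was taken as detected where its background-subtracted intensity was at least 300 on 1 or both arrays. The Day 4 array had 401 such mouse miRNAs and the Day 2 array 369, with 364 on both and 406 on at least 1. The signal log ratio (SLR) is the log2 difference of Day 4 minus Day 2 after quantile normalization, and differences beyond 0.6 (1.52-fold) were counted. Of the 406 detected miRNAs, 30 (7.39%) were higher by more than 0.6 on Day 4 and 8 (1.97%) were lower, and 302 lay within 0.3 of no difference. The spots of 165 (40.6%) did not overlap between the arrays, so that separation of the spots alone was common. The median SLR was -0.01. Of the 364 with at least 300 on both arrays, 23 were higher by more than 0.6 and 6 lower. The count over the 406 depends on the scaling. With endogenous controls, the scaling that the study's methods name, 45 were higher and 5 lower. Spike-in controls gave 5 higher and 60 lower. The Day 2 array also carried a region of raised local background, with 840 of its 12312 spots above 200 against 71 on the Day 4 array, and 115 of the 406 detected miRNAs had a spot there on 1 of the arrays. Values without these positions are given beside each miRNA that they moved by more than 0.1. Such values keep the background correction that was fitted to all spots.

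**Figure D1:**
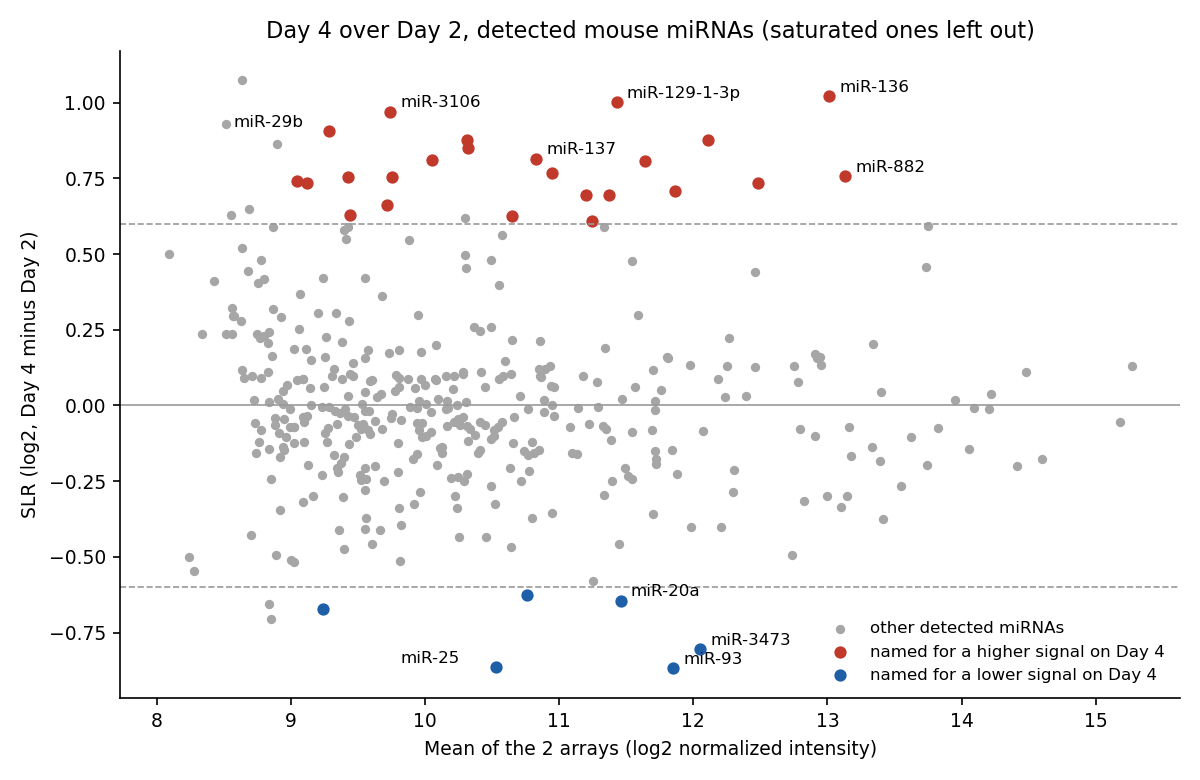
SLR (log2, Day 4 minus Day 2) against the mean log2 normalized intensity of both arrays, a point for each detected, unsaturated mouse miRNA, with dashed lines at 0.6 and -0.6. The named miRNAs above the upper line (red) and below the lower line (blue) spread over most of the intensity range, from miR-29b near the dim end to miR-136 and miR-882 near the bright end.

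The label of neuronal cultures was checked against marker miRNAs. The neuronal miR-124 was saturated, with spots of 64210, 63650, 63710 and 63630 on Day 4 and 63290, 63720, 63540 and 63710 on Day 2, so its fold cannot be stated. For miR-143, enriched in astrocytes, the spots were 44, 39, -10 and -41 on Day 4 and -106, 44, 49 and 34 on Day 2, and the myeloid miR-223 had spots of 58, 76, -8 and -55 on Day 4 and 45, -265, 41 and 36 on Day 2. Neither defining marker stood above the highest negative control, which was 123 on Day 4 and 139 on Day 2. Of the 6 astrocyte and mesenchymal miRNAs 2 were detected, with a summed intensity of 1018 on Day 4 and 875 on Day 2 over all 6. Of the 6 microglial and leukocyte miRNAs 1 was detected (sum 716 on Day 4 and 791 on Day 2), and of the 5 endothelial and erythroid miRNAs 1 was (sum 943 on Day 4 and 1115 on Day 2). Both oligodendrocyte miRNAs were detected, with a sum of 1969 on Day 4 and 1417 on Day 2, and both had separate spots (SLR 0.45 ± 0.28 for miR-338-3p and -0.20 ± 0.16 for miR-219-5p). The part of such cells in the differences below was not tested.

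The sequences below are those the differences turn on, and they show which of the miRNAs share a seed. Of the 30 miRNAs named for the size of their difference, 26 could be matched to a mature sequence of RefSeq (GRCm38.p6), printed 5′ to 3′ with the seed in capitals. The array uses older names, so that miR-29a is now miR-29a-3p and miR-93 is miR-93-5p. Higher on Day 4 were the members of a family of 3 with a common seed.
miR-29a: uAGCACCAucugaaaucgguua
miR-29b: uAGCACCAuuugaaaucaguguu
miR-29c: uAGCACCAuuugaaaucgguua
Neighbours on chromosome 11 and on the X chromosome with shared seeds were also higher.
miR-132: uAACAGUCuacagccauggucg
miR-212-3p: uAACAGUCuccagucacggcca
miR-222: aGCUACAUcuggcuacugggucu
miR-221: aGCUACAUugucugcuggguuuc
From the imprinted cluster on chromosome 12 came miRNAs with seeds that differ from one another.
miR-136: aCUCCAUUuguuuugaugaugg
miR-127: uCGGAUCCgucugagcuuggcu
miR-376a: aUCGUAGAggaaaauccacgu
miR-410: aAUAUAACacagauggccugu
Of the lower miRNAs, miR-93 and miR-20a share a seed, and that of miR-25 differs.
miR-93: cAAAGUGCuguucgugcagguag
miR-20a: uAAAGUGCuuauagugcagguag
miR-25: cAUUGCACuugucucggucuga
miR-130b: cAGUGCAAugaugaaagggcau

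All 3 members of the miR-29 family, which are known to repress pro-apoptotic BH3-only genes in maturing neurons and collagens in many tissues, were higher on Day 4. The spots of miR-29b had background-subtracted intensities of 825, 778, 804 and 835 on Day 4 and 308, 306, 347 and 297 on Day 2, an SLR of 0.91 ± 0.08. For miR-29a they were 1618, 1780, 1869 and 1847 on Day 4 and 674, 787, 857 and 904 on Day 2 (SLR 0.88 ± 0.18). The dimmest member, miR-29c, had 641, 584, 537 and 603 on Day 4 and 255, 129, 240 and 245 on Day 2. In each case the highest Day 2 spot lay below the lowest Day 4 spot. The sequences of miR-29a and miR-29c are nearly the same, and whether their probes tell them apart was not tested. As miR-29c was under 300 on Day 2, it is given only a bound, at least 1.42-fold higher on Day 4, and its measured SLR of 0.86 ± 0.29 was 0.76 without the position of raised background. Under spike-in controls miR-29c was at 0.25, below that bound. The members are encoded in pairs, Mir29a with Mir29b-1 (chr6:31062660-31062747 and chr6:31063023-31063093, minus strand) and Mir29b-2 with Mir29c (chr1:195037040-195037120 and chr1:195037547-195037634, plus strand), and because miR-29b comes from both pairs the array cannot say which locus its signal is from. Their median SLR was 0.88, against -0.01 over all 406 detected, and stayed above 0 under each alternative tried, with a low of 0.37 under spike-in controls.

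MicroRNAs known to act on neurites and dendrites stood mostly on the higher side. Their list was chosen with earlier results of these data known, so its counts and median are a description and no test. Of 16 listed regulators 15 were on the array by that name and 14 detected, of which 6 were higher by more than 0.6 and 0 lower, against 7.39% higher and 1.97% lower over all detected. The median SLR was 0.73 over the 11 that were not saturated, against -0.01 over all detected, and with spike-in controls 1 was above the limit. Under quantile normalization those above 0.6 were miR-29a, miR-29b, miR-222, miR-132, miR-137 and miR-138. Of these, miR-29a, miR-29b and miR-222 are also described with their own families. miR-132, which CREB induces on neuronal activity and which promotes dendrite growth, had spots of 1378, 1379, 1398 and 1580 on Day 4 and 618, 633, 664 and 792 on Day 2 (SLR 0.81 ± 0.17). Its neighbour miR-212-3p, which was not in the list, had 1092, 1126, 1066 and 1117 on Day 4 and 530, 508, 506 and 563 on Day 2 (SLR 0.75 ± 0.05). Their precursors lie within 1 stretch of chromosome 11 (Mir212 at chr11:75173388-75173478 and Mir132 at chr11:75173682-75173747, plus strand), and their SLRs were nearly the same. The other detected product of the miR-132 hairpin, miR-132*, had an SLR of 0.58 ± 0.12. miR-137, which has been tied to dendrite growth through Mib1, had 2442, 2507, 2543 and 2540 on Day 4 and 1200, 1201, 1361 and 1228 on Day 2 (SLR 0.81 ± 0.09). miR-138, a regulator of spine size, had 8776, 8977, 8367 and 7996 on Day 4 and 4333, 4187, 4345 and 4204 on Day 2 (SLR 0.73 ± 0.08). No spot of these 4 miRNAs overlapped between the days. In the same list miR-381 had an SLR of 0.50 ± 0.14 and miR-329 one of 0.31 ± 0.25, with overlapping spots for miR-329, whereas miR-431 (-0.01), miR-34a (-0.07) and miR-188-5p (0.07) lay near no difference.

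Among 20 neuron-enriched miRNAs 16 were detected, 6 were higher by more than 0.6 and 0 lower, again beside 7.39% and 1.97% over all detected. Their median SLR was 0.48 over the 13 that were not saturated, against -0.01 over all detected, and with spike-in controls 2 were above the limit. This list too was chosen with earlier results of these data known. miR-132, miR-137 and miR-138 are counted both here and among the regulators above. Both detected products of the miR-129 hairpins were in this group. miR-129-1-3p had spots of 4030, 3930, 4009 and 4241 on Day 4 and 1853, 1920, 1820 and 1899 on Day 2, which is 2.00-fold with an SLR of 1.00 ± 0.05. miR-129-5p had 3244, 3047, 3084 and 3472 on Day 4 and 1956, 1844, 1841 and 1934 on Day 2 (SLR 0.61 ± 0.08). The difference between these products was larger than the spread of their spots. miR-218, which is abundant in motor and forebrain neurons, had 1673, 2005, 2330 and 2378 on Day 4 and 1191, 1086, 1207 and 1196 on Day 2 (SLR 0.62 ± 0.22), and the Day 4 spots were uneven. miR-128 and miR-153 had SLRs of 0.44 and 0.48, below the limit. miR-149 (0.10), miR-326 (0.02) and the passenger strand miR-124* (-0.25 ± 0.21, and -0.37 without the raised background) lay near or below no difference. Saturation hid any difference of miR-124, miR-9 and miR-9*, the brightest of the group.

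**Figure D2:**
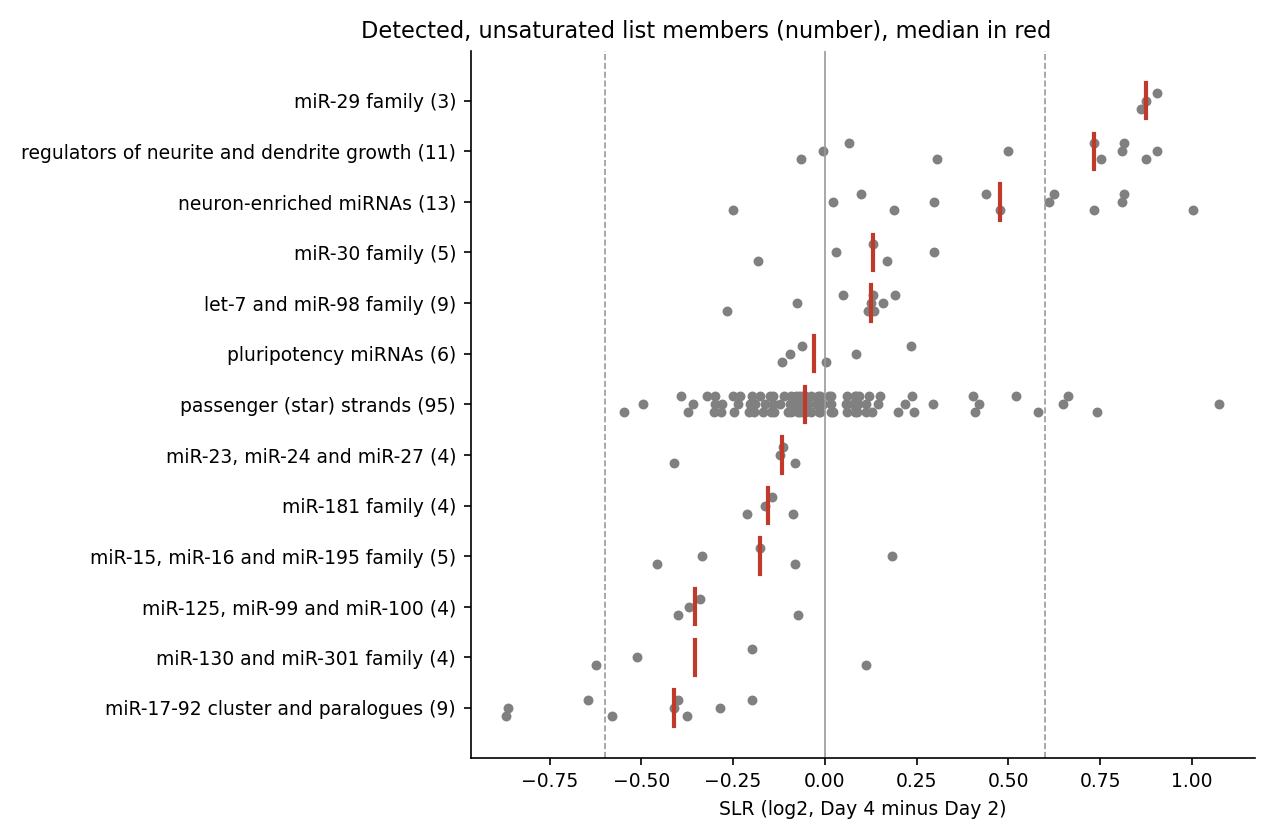
SLR (log2, Day 4 minus Day 2) of the detected, unsaturated members of 13 lists, a grey point for each miRNA and a red bar at each list's median, with dashed lines at 0.6 and -0.6. The 3 miR-29 members sit close together at 0.86 to 0.91, the 9 members of the miR-17-92 cluster and paralogues all lie below 0, and the 95 star strands spread to both sides.

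miR-222 and miR-221 are made from 1 transcript on the X chromosome (Mir222 at chrX:19146893-19146971 and Mir221 at chrX:19146294-19146388, minus strand). miR-222 had spots of 901, 851, 797 and 851 on Day 4 and 379, 388, 393 and 399 on Day 2 (SLR 0.75 ± 0.07). miR-221 was dimmer, with 465, 436, 430 and 442 on Day 4 and 233, 200, 222 and 270 on Day 2, and its Day 4 level was at least 1.15-fold higher (measured SLR 0.48 ± 0.13). With spike-in controls the direction of miR-221 turned (SLR -0.14), so that bound does not hold under that scaling. The spots of both separated by day.

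The largest group of higher miRNAs came from the imprinted Dlk1-Dio3 domain of chromosome 12, whose miRNAs are expressed from the maternal chromosome and are abundant in brain. Precursor loci could be found in RefSeq for 314 of the 396 detected miRNAs with a single mouse name. Of these, 53 came from a run of precursors from Mir770 to Mir410 (chr12:109563692-109743795), and 10 of the 53 were higher by more than 0.6 and 0 lower. These counts moved with the scaling, to 17 higher and 2 lower with endogenous controls, 3 higher and 6 lower with spike-in controls, 19 higher and 2 lower with a floor of 50, and 44 higher and 0 lower with the median of the miRNA spots. Of the other 261, 18 were higher and 6 lower. Among the 10 higher ones of the cluster, miR-136*, miR-411 and miR-411* were under 300 on Day 2 and counted as detected only through Day 4. The median SLR was 0.25 in the cluster, with 38 of 53 above 0, and -0.04 elsewhere, with 115 of 261 above 0, against 47.5% above 0 over all 406 detected. The cluster's median turned negative under spike-in controls (-0.16, with -0.36 for the other 261). It remained above that of the others under each alternative that was applied to these sets. Alternatives that change the detection filter were not applied, as the same 53 and 261 miRNAs were kept throughout.

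Within the domain the higher miRNAs fell at several places along the cluster. miR-136 had the highest SLR of the miRNAs with at least 300 on both arrays under quantile normalization, but miR-3106 stood above it with a floor of 50 (1.17, against 1.04 for miR-136), without background correction (1.11, against 1.03) and in the authors' value table (1.22, against 1.00). In these settings miR-29b and miR-129-1-3p stood above miR-136 as well. miR-136 had spots of 12970, 13190, 15140 and 15690 on Day 4 and 5062, 5059, 6341 and 6262 on Day 2 (2.03-fold, SLR 1.02 ± 0.23). Its passenger strand miR-136* was under 300 on Day 2, and its Day 4 level was at least 1.51-fold higher (spots 560, 503, 758 and 743 on Day 4 and 276, 166, 323 and 327 on Day 2). Under spike-in controls the SLR of miR-136* was 0.18, below that bound. miR-127, which pairs perfectly with the retrotransposon-like gene Rtl1 encoded opposite to it, had 2717, 2778, 2512 and 2639 on Day 4 and 1323, 1354, 1481 and 1431 on Day 2 (SLR 0.77 ± 0.09). miR-433 had 840, 851, 772 and 819 on Day 4 and 416, 410, 423 and 423 on Day 2 (SLR 0.63 ± 0.07). The precursors of these miRNAs lie within the same 5′ part of the cluster, Mir433 at chr12:109591715-109591838, Mir127 at chr12:109592846-109592915 and Mir136 at chr12:109595327-109595388, all on the plus strand. The spots of all 4 separated by day.

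Further along the cluster, miR-376a had spots of 6492, 6255, 7201 and 6889 on Day 4 and 2880, 3110, 3331 and 3317 on Day 2 (SLR 0.88 ± 0.11). miR-410, at the far end, had 4190, 4345, 4556 and 4509 on Day 4 and 2184, 2228, 2435 and 2359 on Day 2 (SLR 0.81 ± 0.09). miR-882, whose annotated precursor lies between those of miR-136 and miR-411 (chr12:109682197-109682273), had 14090, 13850, 14300 and 13330 on Day 4 and 7493, 6945, 7042 and 6608 on Day 2 (SLR 0.76 ± 0.09, and 1.35 with spots bright in the second scanner channel left out). All 3 separated by day with little spread. miR-411 and miR-411* had the steepest measured SLRs of this stretch (0.93 ± 0.71 and 1.07 ± 0.86), but these leaned on a Day 2 position in the raised background. Without it they were 0.62 and 0.69, and as both were under 300 on Day 2 the Day 4 level was at least 1.12-fold higher for miR-411. For miR-411* it was at least 1.28-fold higher. Under spike-in controls the SLR was 0.12 for miR-411 and 0.34 for miR-411*, below these bounds. Just under the limit were miR-369-3p (0.59 ± 0.13), miR-369-5p (0.55 ± 0.13) and miR-300 (0.55 ± 0.17). On the other side of 0 were miR-433* (-0.50 ± 0.08), miR-654-3p (-0.34 ± 0.15) and miR-300* (-0.23 ± 0.04), all with separate spots. The SLRs of miR-679-5p (0.59 ± 1.55), miR-540-3p (-0.50 ± 1.24) and miR-494* (-0.55 ± 1.14) had spreads larger than themselves, and that of miR-494* was 0.07 without the raised background.

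**Figure D3:**
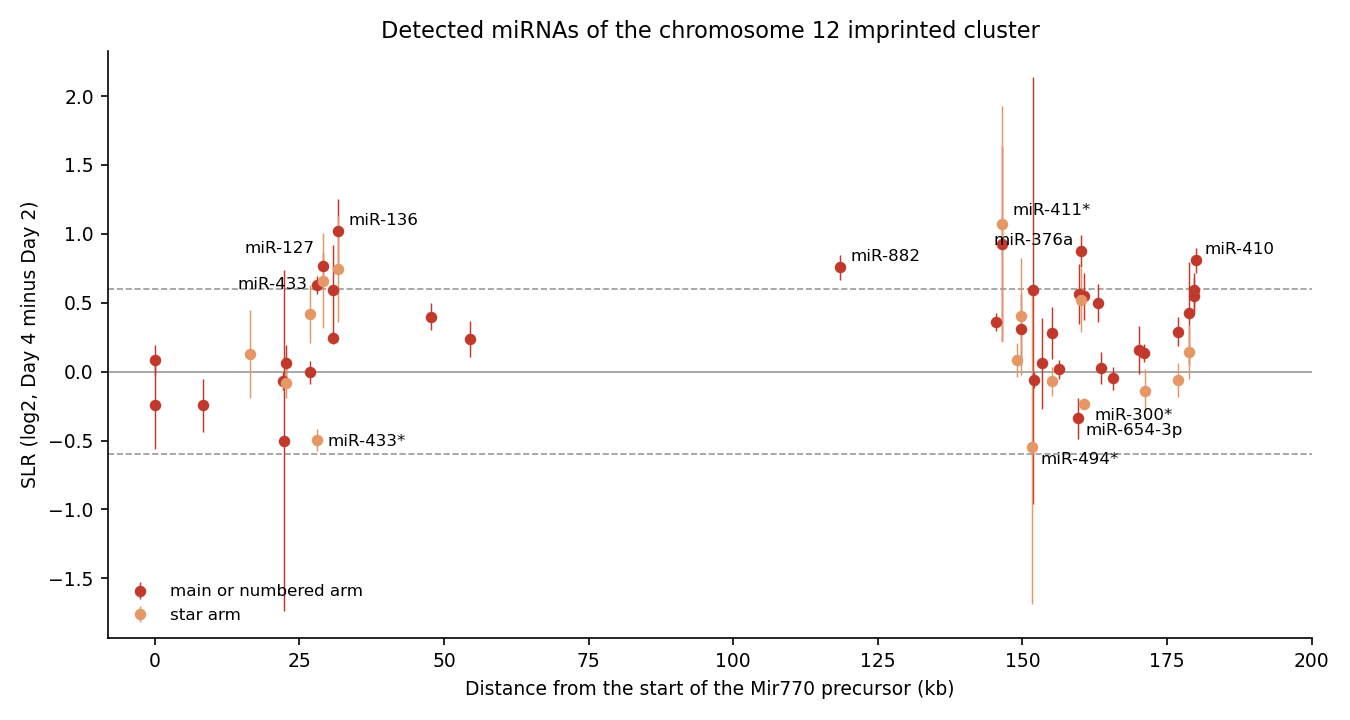
SLR (log2, Day 4 minus Day 2) of 53 detected miRNAs against the distance of their precursor from the start of Mir770 in kb, with bars for the technical SD and dashed lines at 0.6 and -0.6. Red points are arms without a star in their name, orange points star arms, and the points above the upper line are spread from miR-433, miR-127 and miR-136 to miR-410 at the far end.

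Where both arms of a hairpin were measured, they did not always move together. The array had 377 such hairpins by name, and 63 had both arms detected, of which 61 were not saturated. Over these 61 hairpins the SLRs of the arms had a Pearson r of 0.52 and a Spearman rho of 0.39. This is a description across hairpins, all read from the same 2 arrays. The sign was shared by 36 of 61, and the median distance between arms was 0.21. Both arms were higher by more than 0.6 for 3 hairpins paired by name, miR-136, miR-127 and miR-411, though miR-127* was at 0.51 without the raised background. The products miR-129-1-3p and miR-129-5p, whose names did not pair them, were both above the limit as well. Arms were more than 0.6 apart in 6 hairpins.

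The widest gap was in the miR-433 hairpin, with 0.63 ± 0.07 for miR-433 and -0.50 ± 0.08 for miR-433*. With spots bright in the second scanner channel left out miR-433* was at -1.08, beyond the limit, and with endogenous controls it was at -0.14. The intensities of miR-433* were 6403, 6576, 6483 and 6212 on Day 4 and 7947, 8336, 8694 and 8561 on Day 2, with every Day 4 spot below every Day 2 spot. In the miR-551b hairpin, miR-551b had 1952, 2137, 1603 and 1521 on Day 4 and 879, 881, 774 and 755 on Day 2 (SLR 0.85 ± 0.23), against -0.07 ± 0.08 for miR-551b*. miR-137* had an SLR of -0.05 ± 0.06 beside the 0.81 of miR-137, and miR-300* one of -0.23 beside the 0.55 of miR-300. On the lower side, miR-25* (0.02 ± 0.06) and miR-210* (0.09 ± 0.16) stayed near no difference while miR-25 and miR-210 were lower. The specificity of these probes for their arm was not tested.

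**Figure D4:**
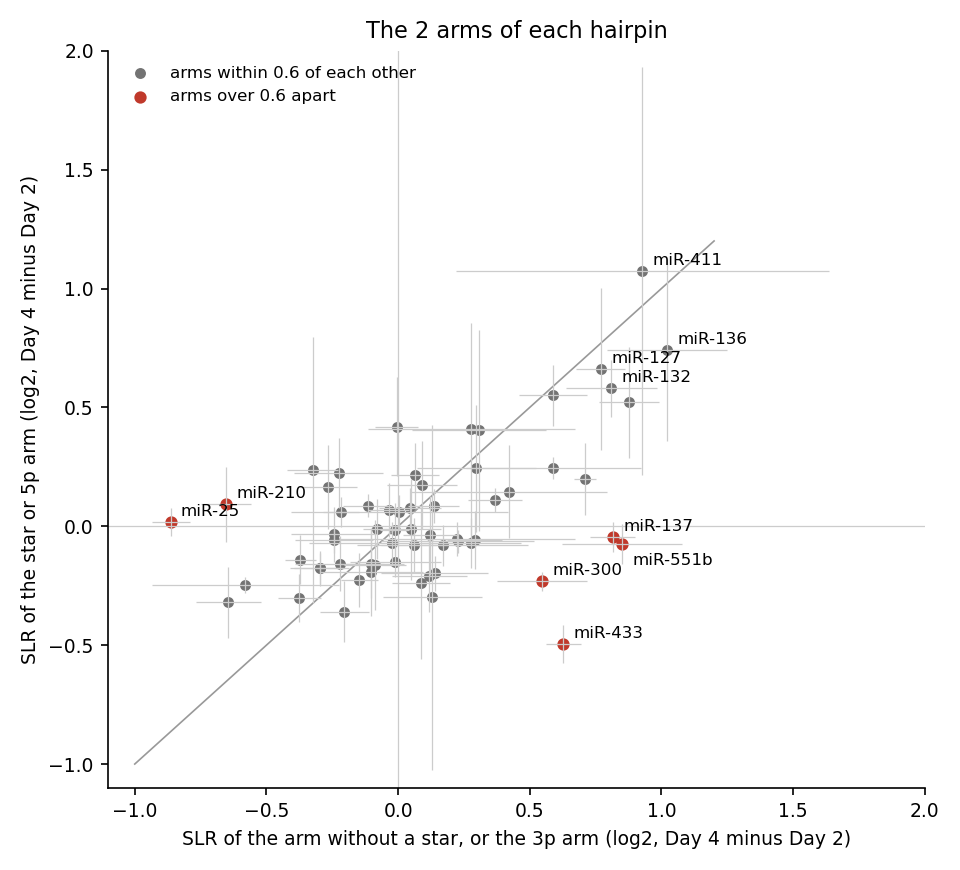
SLR (log2, Day 4 minus Day 2) of the star or 5p arm against that of the arm without a star or the 3p arm, for 61 hairpins, with technical SDs as bars and a line of equality. The 6 hairpins in red have arms more than 0.6 apart, and miR-136, miR-127 and miR-411 are high on both axes.

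Of the 8 miRNAs lower by more than 0.6 on Day 4, 3 belonged to miR-17-92 and its paralogous clusters, miR-93, miR-25 and miR-20a. Of the 13 names listed, 12 were on the array and 9 detected, and all 9 had an SLR below 0, against 52.5% of all detected. This list was also chosen with earlier results of these data known. The 3 below -0.6 stand beside 1.97% over all detected, and the median was -0.41. With endogenous controls 6 of the 9 were below 0 and miR-25 alone was below -0.6 (-0.62), while miR-93 was at -0.51, miR-20a at -0.29, miR-19a at 0.05 and miR-19b at 0.24. With the median of the miRNA spots 1 of the 9 was below 0. miR-93 had spots of 2937, 2939, 2790 and 2680 on Day 4 and 5070, 5182, 4621 and 4262 on Day 2 (1.83-fold lower, SLR -0.87 ± 0.14). miR-25 had 1038, 1049, 1144 and 1061 on Day 4 and 1837, 1894, 1979 and 1980 on Day 2 (SLR -0.86 ± 0.07). Both lie within an intron of Mcm7, a gene of the replication helicase (Mir93 at chr5:138165523-138165610 and Mir25 at chr5:138165321-138165404, minus strand). The other miRNA of that locus, miR-106b, was brighter and differed less, with a mean intensity of 11030 on Day 4 and 13130 on Day 2 (SLR -0.38 ± 0.08). Every Day 4 spot of miR-93, miR-25 and miR-106b was below every Day 2 spot.

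From the miR-17-92 cluster itself, miR-20a had spots of 2479, 2477, 2328 and 2198 on Day 4 and 3561, 3445, 3339 and 3221 on Day 2 (SLR -0.64 ± 0.12). miR-17 had a mean of 2119 on Day 4 and 2939 on Day 2, and its SLR of -0.58 ± 0.36 was -0.45 without the raised background. miR-19a (-0.29 ± 0.06) and miR-19b (-0.20 ± 0.09), which have another seed, differed less. The detected miRNAs with the seed of miR-93 and miR-20a were 6 in number, with SLRs of -0.87 to -0.38. Whether the probes of these 6 tell close sequences apart was not tested. miR-32, which has the seed of miR-25, was at -0.08 ± 0.05. miR-92a, a further miRNA with that seed, was not detected (37 on Day 4 and 56 on Day 2).

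In the miR-130 and miR-301 family miR-130b had 1430, 1417, 1386 and 1462 on Day 4 and 1890, 1986, 2280 and 2158 on Day 2 (SLR -0.62 ± 0.13), and its neighbour on chromosome 16, miR-301b, had 686, 678, 750 and 729 on Day 4 and 814, 824, 1061 and 1066 on Day 2 (SLR -0.51 ± 0.20). These 2 separated by day, whereas the spots of miR-130a (-0.20 ± 0.49) and miR-301a (0.11 ± 0.16), which are encoded elsewhere, overlapped. The miR-15, miR-16 and miR-195 family, which restrains the cell cycle, had no member beyond the limit, with miR-15b (-0.46 ± 0.07) and miR-195 (0.18 ± 0.12) at its ends. The miR-99 family had no member beyond it either, with miR-99a at -0.40 ± 0.33 (-0.26 without the raised background) and miR-99b at -0.37 ± 0.06.

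Other miRNAs on the lower side had no shared locus. miR-3473 had 3524, 3520, 3460 and 3376 on Day 4 and 5183, 5318, 5627 and 5425 on Day 2 (SLR -0.80 ± 0.06). The erythroid miR-451 had 445, 468, 388 and 301 on Day 4 and 678, 496, 674 and 680 on Day 2 (SLR -0.67 ± 0.26, and -0.80 without the raised background). The leukocyte miR-142-3p (-0.51 ± 0.14) and the epithelial miR-203 (-0.52 ± 0.10) were lower by less than the limit, with separate spots. The hypoxia-induced miR-210 and the X-linked miR-878-3p were under 300 on Day 4, with means of 264 on Day 4 and 434 on Day 2 for miR-210 and of 261 on Day 4 and 449 on Day 2 for miR-878-3p, and the bounds are at least 1.39-fold lower on Day 4 for miR-210 and 1.42-fold lower for miR-878-3p.

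Several higher miRNAs belonged to none of these groups. miR-22, broadly expressed and reported to protect neurons, had 4839, 5003, 5095 and 5016 on Day 4 and 2781, 2812, 2835 and 2703 on Day 2 (SLR 0.71 ± 0.04). miR-3106 had 1227, 1137, 1163 and 1250 on Day 4 and 471, 442, 471 and 501 on Day 2 (SLR 0.97 ± 0.08). miR-710 and miR-711 had SLRs of 0.70 ± 0.07 and 0.69 ± 0.05. The spots of these 4 miRNAs were tight and separate. miR-873 was under 300 on Day 2, and on Day 4 it was at least 1.59-fold higher (spots 711, 694, 659 and 638 on Day 4 and 310, 340, 254 and 259 on Day 2). Its SLR under spike-in controls was 0.21, below that bound. The value of miR-1958 (0.62 ± 1.10) came from a single Day 4 spot of 5145 beside 1076, 951 and 1090, and was 0.14 with the median foreground. miR-30c-1* and miR-324-5p, counted among the 30 that were higher by more than 0.6 but not named by fold, were at 0.33 and 0.23 without the raised background.

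**Figure D5:**
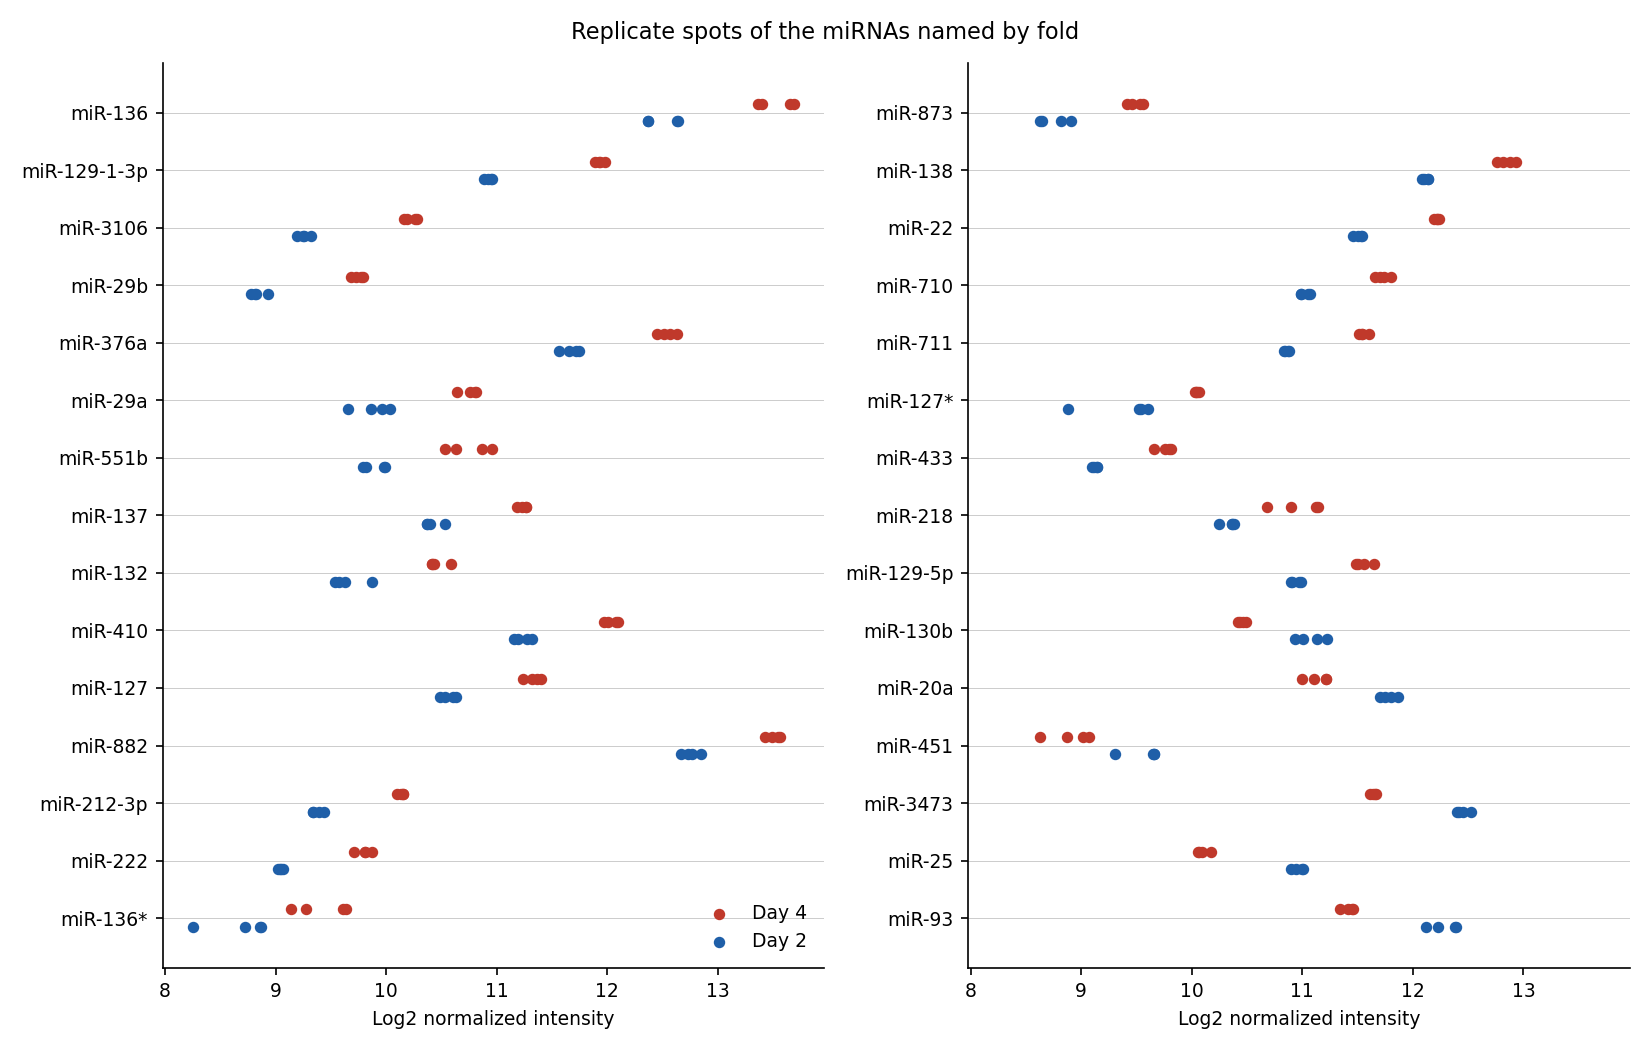
Log2 normalized intensity of the 4 replicate spots on Day 4 (red, upper row of each miRNA) and on Day 2 (blue, lower row) for the 30 miRNAs named by fold, from the highest SLR (miR-136) to the lowest (miR-93). Separate spots were part of the rule that named 28 of the 30, and the spots of miR-127*, miR-136* and miR-451 are more widely spread than those of miR-22 or miR-3473.

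Several other groups differed little in their medians. The 9 detected members of the let-7 and miR-98 family had a median SLR of 0.13, with let-7e at -0.27 ± 0.12 and miR-98 at 0.19 ± 0.16 as the ends. Medians were 0.13 in the miR-30 family and -0.15 in the miR-181 family, and 0 members of either passed the limit. Of 71 probes listed by name for the Sfmbt2 cluster, a rodent miRNA cluster, 41 were detected and 0 passed the limit (median 0.06). Not all need come from that locus, as the precursor of the listed miR-466i arms lies on chromosome 13. Of 328 passenger strands named with a star, 96 were detected, 4 were higher and 0 lower, and their median was -0.05. Over all detected miRNAs 7.39% were higher and 1.97% lower. The 10 miRNAs that the study singled out were all detected, but they were chosen on these samples. miR-218 and miR-129-5p were above the limit, miR-203 was at -0.52, and miR-290-5p (0.09 ± 0.05) and miR-326 (0.02 ± 0.10) had overlapping spots.

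The following intervals were read from the later arrays. From Day 4 to Day 6, 4 of 402 detected miRNAs (0.995%) were higher by more than 0.6 on Day 6 and 5 (1.24%) were lower. From Day 6 to Day 8, 8 of 389 (2.06%) were higher on Day 8 and 1 (0.257%) was lower. The count of miRNAs beyond the limit was thus greatest in the interval from Day 2 to Day 4, a comparison of counts with 1 array a day. These counts are under quantile normalization, and only that interval uses the Day 2 array with its raised background. The part of that background in the larger count was not tested. The 22 miRNAs that were higher on Day 4 with at least 300 on both arrays and separate spots had a median SLR of 0.25 for Day 6 over Day 4, which shares the Day 4 array, and of -0.02 for Day 8 over Day 6, where 10 of 22 lay above 0, against 38.8% of the 389. The 6 that were lower by the same rule had a median of -0.41 for Day 6 over Day 4, which again shares the Day 4 array, and of -0.42 for Day 8 over Day 6. In each interval 5 of 6 lay below 0, against 50.5% of the 402 and 61.2% of the 389. The exception was miR-3473, with SLRs of 0.75 for Day 6 over Day 4 and 0.62 for Day 8 over Day 6. miR-25 had -0.43 and -0.48 in these intervals and miR-29a 0.49 and 0.33, while miR-137 had -0.08 and -0.22 and miR-132 0.47 and -0.20.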

How the data were processed

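The deposited scanner files give, for 12312 spots per array, foreground and background intensity and the percent of saturated pixels, from an InnoScan 700 and Mapix 4.5.0 per the file headers, and these values are not normalized between arrays. The study's methods then scaled each array to endogenous controls and to Day 2, and endogenous controls were tried here as an alternative. Probes follow miRBase 16.0. The mean foreground intensity was background-corrected (normexp, offset 50, all spots) in limma 3.58.1 under R 4.3.3, quantile normalization was applied to the miRNA spots of all 4 arrays and the spots of a probe were averaged. Probes with 50 percent or more saturated pixels got no fold. A probe under 300 on 1 array got a bound, set against its own signal there or, if higher, the lowest normalized signal of any probe on that array with all spots at or above 300. Bounds were computed under quantile normalization and need not hold under another scaling. The number of arrays limits the precision. Background correction and quantile normalization were tested on simulated arrays with an even background and changes set in probes of middle signal. The simulation held no region of raised background, and the bounds and other scalings were not tested in it. The members, the 31 lists, the rule for named miRNAs and the alternatives were chosen with earlier results of these data known. Named were miRNAs beyond 0.6 with 300 on both arrays and separate spots, bounds of 1.5-fold or more, the 2 ends of each list, miR-124, miR-143, miR-223 and the 10 miRNAs of the study, and others named were chosen after their values were seen. Tried were 15 alternatives, and 6 more after seeing the data.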

Additional observations from a re-analysis of the deposited data

Results flagged for a closer look

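Signal also appeared on probes outside the comparison. Of 202 probes for viral miRNAs, 41 had at least 300 on the Day 4 or the Day 2 array, although no negative control exceeded 139. Their median SLR was -0.07, 1 was higher by more than 0.6 and 0 were lower, and hsv1-miR-H4* was the brightest, with 20410 on Day 4 and 16910 on Day 2. Of 1113 probes for human or rat miRNAs without a mouse name, 225 had at least 300 on 1 of these arrays, 10 were higher and 5 lower, and the median was -0.03. Over the detected mouse miRNAs 7.39% were higher and 1.97% lower.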

How the results depend on the processing

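The scaling decided most of what moved, and the cause was not tested. Lower miRNAs numbered 16 with a floor of 50 or with the authors' value table, 14 without normalization and 4 with cyclic loess. Endogenous controls gave a median SLR of 0.18 and 5 lower. Spike-in controls gave -0.35, with 5 higher, 60 lower and 313 with separate spots, and -0.11 for the miR-379-410 cluster. Scaling by the median of all miRNA spots, most of which are dim, gave 0.76, with 309 higher, 0 lower and 385 with separate spots. It turned miR-130b (0.24), miR-20a (0.28), miR-451 (0.026), miR-3473 (0.19) and miR-93 (0.073) positive, as it did the medians of the miR-17-92 (0.36), miR-130 and miR-301 (0.51) and miR-125/99/100 (0.50) lists. With positions of raised background left out, endogenous controls gave 0.34, with 73 higher, 0 lower, 318 separate and 0.039 for the miR-125/99/100 list. Spike-in controls then gave -0.38, with 3 higher, 62 lower and 334 separate, and no normalization gave 0.16, with 47 higher and 4 lower. All 22 higher miRNAs with 300 on both arrays and separate spots stayed above 0 wherever they had a value, but 5 passed 0.6 under spike-in controls and 3 did so without raised background. Of the 6 lower ones, 1 passed under endogenous controls and 0 without raised background. The other alternatives left all counts within 1.5 times. No paired analysis was possible because there was 1 array a day. Dim probes under 300 give bounds only.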

Other observations

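The endogenous controls did not move as 1 group. The 3 probes for the spliceosomal U6 RNA, RNU6-1_RNU6-2, U6B and RNU6-1, had lower values on Day 4 by -0.64, -0.79 and -0.90 on the log2 scale before scaling, with intensities of 22150 on Day 4 and 34560 on Day 2 for the brightest. The other 12 controls, small nucleolar RNAs, RNU1, RNU5 and the 5S rRNA, lay between -0.26 and 0.00. With the U6 probes left out of the endogenous controls, the counts were 31 higher and 8 lower.

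The raised background also moved the background correction. The background mean that normexp fitted was -71 on the Day 4 array and -236 on the Day 2 array, but -69 and -49 without the positions of raised background. Quantile normalization gave 29 higher and 8 lower with these positions left out, but only after the background fit to all spots. It was not run on the fit without them, so the effect of that shift on these counts was not tested.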
